A study of Rattus norvegicus with 12 samples.

Results

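The heat shock proteins and the chaperones of the endoplasmic reticulum (ER) were examined in rat dorsal root ganglia (DRG) 3 days after local inflammation. The genes were chosen by symbol, from the families Hspa, Hspb, Hspd, Hspe, Hsph, Hsp90, Dnaja, Dnajb, Dnajc, Cct, Pdia, Bag, Fkbp and Ero1, with the single genes Calr, Canx, Tcp1, Hyou1, Sdf2l1, Xbp1, Ern1, Ddit3 and Herpud1. Of 8260 core probesets on the array, 7603 carried exactly 1 gene symbol, and 60 of these, each for a different gene, met the rule. Another 4 probesets carried a symbol of these families together with other symbols, among them the stress-inducible genes Hspa1a and Hspa1b, and were left out by the rule. No probeset of 1 symbol was found for Hspa8, Hsp90aa1, Hspd1, Tcp1 or Dnajb1.

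Each of 12 arrays held RNA from a single L5 DRG of 1 adult male Sprague Dawley rat on post-operative day 3. In 6 rats the ganglion was locally inflamed (LID) with 10 µl of incomplete Freund's adjuvant that held zymosan, an immune activator from yeast cell wall, at 2 mg/ml, and 6 sham rats had the same incision and exposure of the foramen without the injection. LID and sham thus differ in both zymosan and adjuvant, whose parts cannot be told apart. The deposited values are log2 expression relative to the median of the 12 arrays for each probeset, so they give differences between ganglia but no level of expression, and the identity of the tissue could not be checked from levels of its markers. Where 2 groups of 6 do not overlap, this centring places them on opposite sides of 0.

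Chaperones help other proteins to fold and keep unfolded chains from clumping. HSP70 and HSP90 proteins do this with energy from ATP, J-domain proteins bring clients to HSP70, and small heat shock proteins hold unfolded clients without ATP. In the ER a separate set, led by the HSP70 protein BiP, folds secreted and membrane proteins, while lectins retain unfinished glycoproteins and disulfide isomerases join their cysteines. When unfolded proteins build up there, sensors in the ER membrane start the unfolded protein response, which raises these chaperones through the ER stress element, and, where stress lasts, raises the transcription factor CHOP, the product of Ddit3. The cytosol has a response of its own, in which heat shock factors act on heat shock elements.

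Promoters of genes with an element of either response are given here, since 4 of the genes that rose in LID carry one. RefSeq promoters of the GRCr8 build, from 250 bases before the gene start to 50 bases after it, were found for 50 of the 60 genes. Among the genes without one were Ero1a and Dnajc2, lower in LID, and Pdia6, Fkbp10 and Dnajc8, higher in LID. The ER stress element was searched on both strands as CCAAT and CCACG with 9 bases of any kind between them. The heat shock element was searched as GAA, TTC and GAA or as TTC, GAA and TTC, each with 2 bases of any kind between the triplets, and these forms can overlap. The 250 bases before the start of Hspa5, which encodes BiP, and of Hsp90b1, which encodes the ER form of HSP90, are given from 5′ to 3′, with the fixed letters of each ER stress element in capitals.
Hspa5, chr3:38452766-38453015, plus strand: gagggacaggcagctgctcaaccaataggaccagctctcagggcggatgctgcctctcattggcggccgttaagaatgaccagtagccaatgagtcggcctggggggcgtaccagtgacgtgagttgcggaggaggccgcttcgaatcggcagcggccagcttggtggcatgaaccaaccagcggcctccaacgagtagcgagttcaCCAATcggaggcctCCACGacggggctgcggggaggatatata
Hsp90b1, chr7:23012294-23012543, minus strand: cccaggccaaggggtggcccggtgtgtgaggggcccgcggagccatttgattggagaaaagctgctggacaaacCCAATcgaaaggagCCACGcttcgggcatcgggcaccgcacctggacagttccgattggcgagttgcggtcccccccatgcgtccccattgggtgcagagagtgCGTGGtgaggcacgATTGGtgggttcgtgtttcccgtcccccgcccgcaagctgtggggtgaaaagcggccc
Hspa5 held 1 element, starting 43 bases before the gene start, and Hsp90b1 held 2, starting 176 and 72 bases before it. The second element of Hsp90b1 lies on the opposite strand, so it reads from CGTGG to ATTGG.

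ER stress elements of Calr, Dnajc3 and Xbp1 are shown with 10 bases on either side, again with the fixed letters in capitals.
Calr, chr19:40213125-40213163, plus strand: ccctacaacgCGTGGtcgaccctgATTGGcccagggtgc
Dnajc3, chr15:102432524-102432562, plus strand: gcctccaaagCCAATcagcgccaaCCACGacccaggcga
Xbp1, chr14:84604548-84604586, plus strand: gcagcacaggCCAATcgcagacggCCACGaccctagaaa
In all, 6 of 50 genes (12%) held an ER stress element, against 0.161% of the 6222 measured genes with a promoter, which include the 50. Over all 27457 genes with a RefSeq promoter the share was 0.0765%. Of the 6 chaperone genes with the element, 4 were higher in LID (Hspa5, Hsp90b1, Calr and Dnajc3), and Xbp1 and 1 further gene did not pass the test. Among genes with a promoter, the element was found in 4 of 7 higher in LID, in 0 of 4 lower in LID and in 2 of 39 that did not pass. CCACG alone was found in 7 of 7, in 2 of 4 and in 28 of 39 of them, and in 39.4% of the measured genes. Other forms of the element were not searched. The other measured genes with the full element were Hnrnpa3, Pan2, Zfand2a and Zfp57. Among their 5 probesets none was higher and 1 was lower, that of Zfand2a (log2 fold change -0.16, standard error 0.042, adjusted p = 0.0149 in limma). A match is a stretch of letters and no measure of binding, and Pdia4, which was higher in LID, had none in this window.

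Heat shock elements were found in 4 of 50 genes (8.0%), against 0.611% of the measured genes and 0.794% of all genes with a RefSeq promoter. Those of Hsph1 and Hspe1 lie before the gene start and are shown in the same way, while those of Dnaja1 and Cct4 lie after it.
Hsph1, chr12:10427322-10427354, plus strand: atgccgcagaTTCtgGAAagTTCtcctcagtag
Hspe1, chr9:64084252-64084284, plus strand: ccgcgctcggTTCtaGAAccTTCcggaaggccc
Hspe1, chr9:64084257-64084289, plus strand: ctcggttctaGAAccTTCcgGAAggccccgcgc
Hspe1 is shown with each of its 2 matches, which overlap. None of the 4 genes passed the test between LID and sham, with log2 fold changes of 0.055 for Hsph1, 0.11 for Dnaja1, -0.036 for Cct4 and 0.060 for Hspe1.

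**Figure D1:**
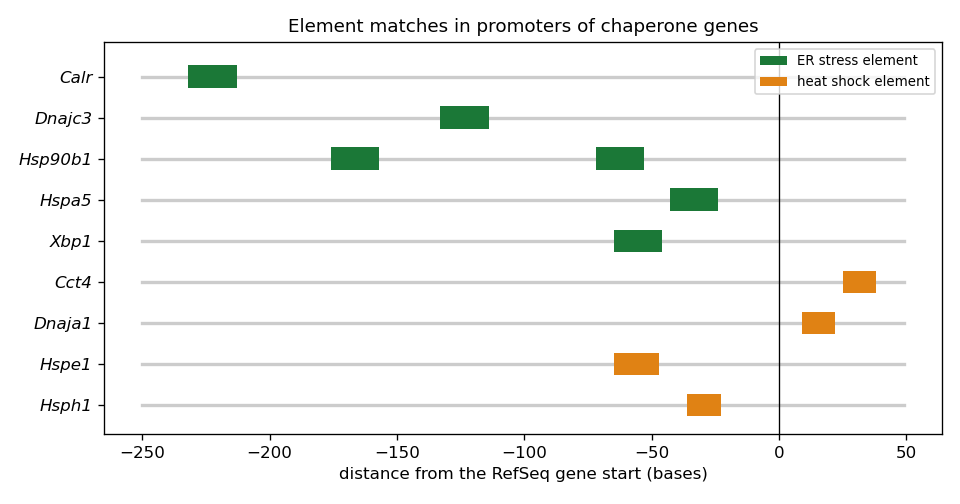
Position of each ER stress element (green) and heat shock element (orange) in the promoters of 9 chaperone genes, in bases from the RefSeq gene start. Grey lines mark the window searched, from 250 bases before the start to 50 after it, and of the genes drawn Calr holds its element farthest from the start.

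LID was compared with sham for every probeset with limma, and a gene is called higher or lower where p was under 0.05 after Benjamini-Hochberg adjustment for the 8260 probesets. Fold changes carry 95% confidence intervals, and n was 6 arrays per group throughout. Of the 60 genes, 16 passed the test (26.7%), where 19.4% of all probesets passed. The genes higher in LID numbered 10 (16.7%, against 7.66% of all probesets) and the genes lower in LID 6 (10.0%, against 11.7%). At an unadjusted p under 0.05 the numbers were 14 and 11 of the 60 genes, against 972 and 1500 of the 8260 probesets. The groups did not overlap in 5 of the 60 genes (8.33%), against 10.0% of all probesets. Of the 13 genes grouped under ER folding, disulfide formation and the unfolded protein response, 7 passed (53.8%), 5 higher (38.5%) and 2 lower (15.4%). Of the other 47 genes 9 passed (19.1%), 5 higher (10.6%) and 4 lower (8.51%). This split goes by role group, so the 47 also hold proteins of the ER, such as those of Dnajc3 and Fkbp10. In whole ganglia, fewer cells of a type and less RNA per cell cannot be told apart. The differences were small: the log2 fold change of the 60 genes ran from -0.63 for Ero1a to 0.31 for Hspa2, with a median of 0.02, and the median over all probesets was -0.02.

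The number of genes called higher depended on single arrays. It was 6 when sham replicate 3, LID replicate 1 or LID replicate 4 was left out and 5 when sham replicate 4, LID replicate 2 or LID replicate 3 was left out. The number called lower was 5 or 6 in each such fit. Among the 16 genes, 9 passed in every fit with 1 array left out, and these were Pdia4, Hsp90b1, Hspa5 and Hspa2 among the higher and Ero1a, Hspb6, Ddit3, Dnajc2 and Dnajc28 among the lower genes. Of the 44 genes that did not pass, 4 did so when 1 array was left out.

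**Figure D2:**
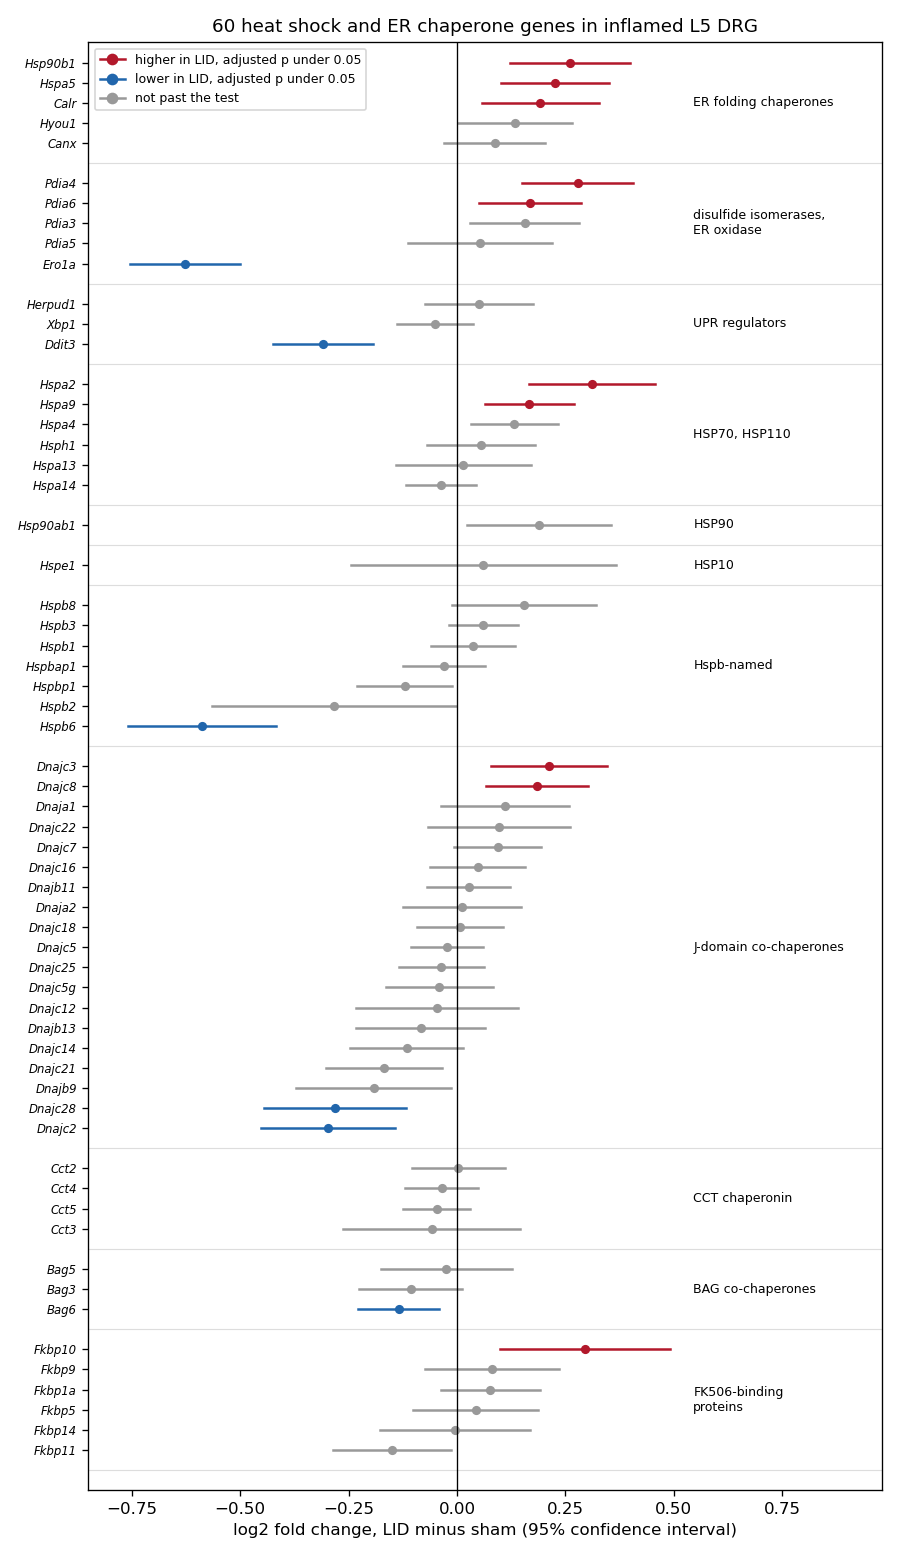
Log2 fold change (LID minus sham) of the 60 genes by role, with 95% confidence intervals from limma and n = 6 arrays per group. The 10 genes higher in LID (red) end at 0.31 (Hspa2), while Hspb6 and Ero1a (blue) are lowest at -0.59 and -0.63.

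Of 5 ER folding chaperones measured, 3 rose and none fell, and all 5 had a positive log2 fold change (median 0.19). Hspa5, for BiP, which binds new chains as they enter the ER and holds the stress sensors inactive, had log2 values of -0.0050, -0.21, -0.22, -0.24, -0.11 and 0.0050 in sham replicates 1 to 6 and of 0.044, 0.17, 0.18, -0.032, 0.12 and 0.091 in LID replicates 1 to 6. Of the LID arrays, 5 lay above every sham array, and only LID replicate 4 fell among the sham values. The increase was 1.17-fold (1.07 to 1.28, adjusted p = 0.015). The adjusted p was 0.0573 once sham replicate 2 and LID replicate 2 were both left out.

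Hsp90b1 encodes the ER form of HSP90, which folds integrins and Toll-like receptors. Its values ran from -0.29 to 0.0063 with a median of -0.15 in sham and from -0.0063 to 0.28 with a median of 0.10 in LID. Again 5 of 6 LID arrays lay above every sham array, with LID replicate 1 the exception. Hsp90b1 rose 1.20-fold (1.09 to 1.32, adjusted p = 0.0117).

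Calr, for calreticulin, a lectin that retains unfinished glycoproteins and buffers calcium, had values from -0.28 to 0.0027 with a median of -0.048 in sham and from -0.080 to 0.22 with a median of 0.13 in LID. The groups overlapped through LID replicate 5, which lay below sham replicates 1, 5 and 6. It rose 1.14-fold (1.04 to 1.25), close to the threshold (adjusted p = 0.0465). The adjusted p was 0.0676 to 0.102, and the call lost, when any 1 of sham 2, sham 3, sham 4 or LID 1, 2, 3, 4 or 6 was left out.

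Its membrane-bound relative Canx, for calnexin, ran from -0.19 to 0.074 with a median of -0.015 in sham and from -0.025 to 0.17 with a median of 0.019 in LID, with the groups overlapping widely. Its log2 fold change was 0.086 (-0.029 to 0.20, adjusted p = 0.326), and Hyou1, an exchange factor of BiP, had 0.13 (0.0030 to 0.27, adjusted p = 0.156). Neither passed the test. The intervals of both overlap that of the log2 fold change of Hspa5 (0.23, 0.10 to 0.35), and differences between genes were not tested.

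Of 4 Pdia genes, which form and rearrange disulfide bonds in the ER, 2 rose (Pdia4 and Pdia6), and the oxidase gene Ero1a fell. Pdia4 ran from -0.28 to -0.0023 with a median of -0.24 in sham and from 0.0023 to 0.22 with a median of 0.053 in LID. The groups did not overlap, although sham replicate 1 nearly met LID replicate 6, and the other 5 sham arrays lay lower. The increase was 1.21-fold (1.11 to 1.32, adjusted p = 0.00528).

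Pdia6 ran from -0.16 to 0.037 with a median of -0.11 in sham and from -0.0029 to 0.22 with a median of 0.026 in LID, with 3 LID arrays above every sham array. It rose 1.12-fold (1.04 to 1.22, adjusted p = 0.0445), and leaving out any 1 of sham 2, 3, 4, 5 or 6 or LID 1, 2, 3 or 6 ended the call (adjusted p between 0.0502 and 0.102).

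Pdia3, which works with calreticulin and calnexin and in the loading of MHC class I, ran from -0.29 to 0.027 with a median of -0.066 in sham and from -0.017 to 0.18 with a median of 0.054 in LID. Sham replicate 2 lay far below the other sham arrays, and LID replicates 4 and 6 were highest. Its log2 fold change was 0.16 (0.030 to 0.28, adjusted p = 0.0821), which did not pass. Pdia5 had 0.052 (-0.11 to 0.22).

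Ero1a had the largest change of the 60 genes. It encodes the ER oxidase that passes electrons from disulfide isomerases to oxygen, and it is known as a target of hypoxia signaling. The sham arrays had 0.20, 0.24, 0.47, 0.40, 0.48 and 0.50 (replicates 1 to 6) and the LID arrays had -0.22, -0.31, -0.32, -0.20, -0.21 and -0.21. All 6 LID arrays lay below all 6 sham arrays, and they were closer to each other than the sham arrays were, in which replicates 1 and 2 were lowest. Ero1a fell by 0.63 (log2, standard error 0.059, adjusted p = 2.67e-05), a change larger in size than those of 97.3% of all probesets.

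Of 3 regulators of the unfolded protein response measured, 1 fell and none rose, and at an unadjusted p under 0.05 no other passed. Ddit3, for CHOP, ran from 0.025 to 0.30 with a median of 0.17 in sham and from -0.25 to -0.025 with a median of -0.17 in LID. The groups did not overlap, with LID replicate 6 and sham replicate 5 nearest to each other. Ddit3 fell by 0.31 (log2, standard error 0.054, adjusted p = 0.0016). Xbp1, the transcription factor whose spliced form acts on ER stress elements, ran from -0.073 to 0.12 with a median of 0.027 in sham and from -0.069 to 0.045 with a median of -0.030 in LID, with a log2 fold change of -0.051 (-0.14 to 0.037, adjusted p = 0.474). Herpud1, which serves the degradation of ER proteins, ran from -0.14 to 0.092 with a median of -0.049 in sham and from -0.099 to 0.14 with a median of 0.043 in LID, with a log2 fold change of 0.051 (-0.073 to 0.17, adjusted p = 0.641). In both the groups overlapped. Splicing of Xbp1 cannot be read from a value for the whole gene.

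Of 3 J-domain genes described here as working with BiP in the ER, 1 rose, and the other 2 did not pass the test. Dnajc3, which assists BiP and restrains the stress kinase PERK, had a sham median of -0.075, a lowest sham value of -0.34 and sham replicates 1 and 6 at the median of the 12 arrays. It ran from -0.018 to 0.16 with a median of 0.14 in LID. Only LID replicate 5 lay among the sham arrays, and sham replicate 2 was lowest. It rose 1.16-fold (1.05 to 1.27, adjusted p = 0.0296), and leaving out any 1 of sham 3, sham 4 or LID 2, 3, 4 or 6 ended the call (adjusted p between 0.0511 and 0.0662).

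Dnajb9, which represses the sensor of the Xbp1 branch through BiP, ran from -0.12 to 0.48 with a median of 0.16 in sham and from -0.13 to 0.061 with a median of -0.027 in LID, with a log2 fold change of -0.19 (-0.37 to -0.014, adjusted p = 0.133), and among the fits with 1 array left out it passed without sham replicate 4 (adjusted p = 0.038). Dnajb11, a further cofactor of BiP, had 0.027 (-0.068 to 0.12).

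**Figure D3:**
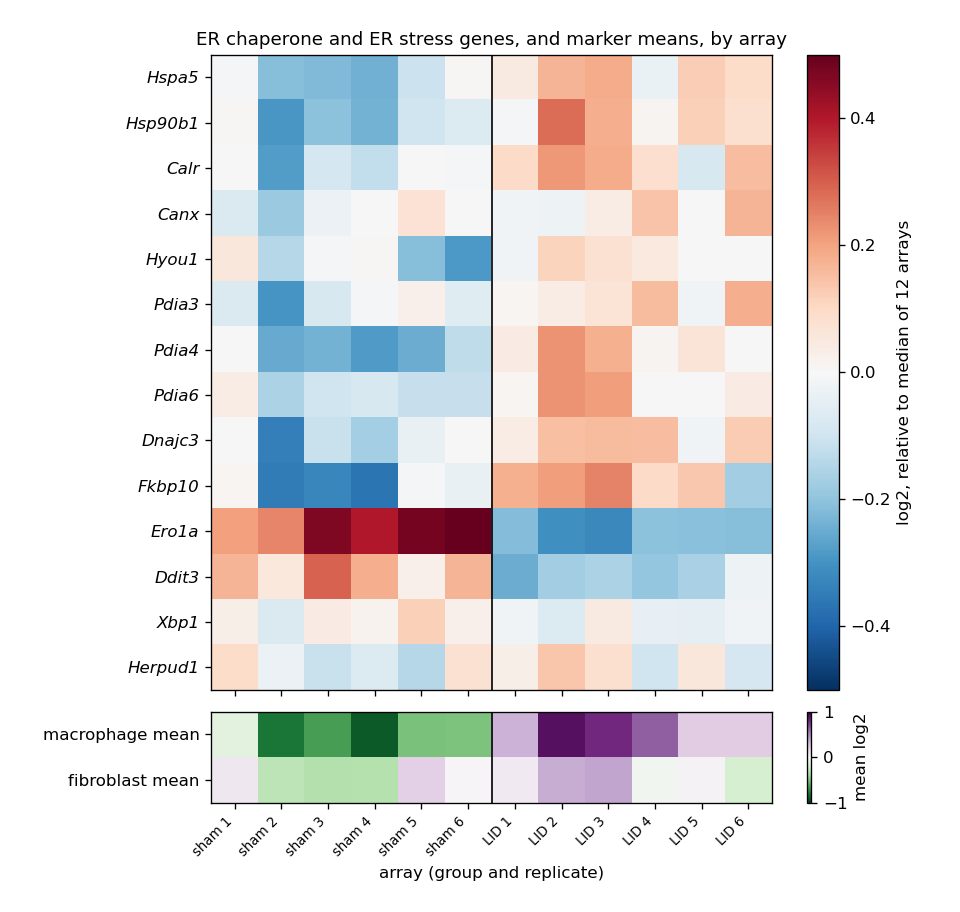
Log2 values of 14 ER chaperone and ER stress genes in each array (columns), relative to the median of the 12 arrays, above the mean log2 value of 11 macrophage and 4 fibroblast markers in the same arrays. Most chaperones are low in sham replicates 2, 3 and 4 and high in LID replicates 2 and 3, whereas Ero1a and Ddit3 are above 0 in all 6 sham arrays and below 0 in all 6 LID arrays.

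Markers of macrophages and of fibroblasts were set beside these genes in each array. Of 11 markers of macrophages and monocytes measured, 10 were higher in LID, and their mean ran from -0.91 to -0.14 in sham and from 0.23 to 0.92 in LID. The mean of 4 fibroblast markers, none of which passed, ran from -0.35 to 0.22 in sham and from -0.21 to 0.39 in LID. The mean of the 5 ER folding chaperones ran from -0.22 to -0.0024 in sham and from 0.020 to 0.15 in LID. All 3 means were highest among LID arrays in replicates 2 and 3, and the chaperone and fibroblast means were lowest among sham arrays in replicates 2, 3 and 4, as was the macrophage mean. Other arrays differed in order. LID replicate 6 had the third highest chaperone mean (0.099) with a macrophage mean of 0.23 and the lowest LID fibroblast mean (-0.21), and LID replicate 4 had a macrophage mean of 0.65 with a chaperone mean of 0.052. Of 6 markers of T and NK cells 3 were higher (50%, against 7.66% of all probesets). Of 17 markers of sensory neurons none was higher and 2 were lower (11.8%, against 11.7% of all probesets). Of 7 markers of satellite glia none was higher and 2 were lower (28.6%), Kcnj10 (-0.42) and Slc1a3 (-0.48). Cd79b, the 1 marker of B and plasma cells measured, had a log2 fold change of 0.20 (-0.0061 to 0.41, adjusted p = 0.181). The part of these cells in the chaperone values was not tested.

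Other genes of ER protein folding came from lists of related genes. Over all probesets 7.66% were higher and 11.7% lower. Of 10 further genes for glycoprotein folding and disulfide bonds, 1 was higher and 2 were lower (median log2 fold change -0.03). The one that rose was P4hb, the founding disulfide isomerase, at 0.27 (standard error 0.062, adjusted p = 0.00878), and the lower ones were the lectin Mlec (-0.83) and the thioredoxin-related Tmx2 (-0.15). Of 10 genes for degradation of ER proteins, 2 were higher (20%) and 2 lower (20%), with a median of 0.04. The higher ones were the ATPase Vcp (0.20) and the ligase adaptor Sel1l (0.18), and the lower ones Selenos (-0.19) and Faf2 (-0.23). Of 8 genes for the translocon and signal peptidase 1 was higher (12.5%), Ssr3 (0.30), and none was lower (median 0.09).

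Of 15 further sensors and targets of the unfolded protein response, none was higher, against 7.66% of all probesets. Lower were 2 (13.3%, against 11.7% of all probesets), and the median log2 fold change was -0.0047. At an unadjusted p under 0.05, 0 were higher and 4 lower, against 972 and 1500 of the 8260 probesets. The lower genes were Creb3l1, an ER-bound transcription factor (-0.38, standard error 0.057, adjusted p = 0.000688), and Wfs1, an ER membrane protein (-0.22). Eif2ak3, for PERK, had 0.12 (-0.027 to 0.26), Atf4, which acts upstream of CHOP, had 0.069 (-0.020 to 0.16), and Trib3, a target of Atf4 and CHOP, had 0.10 (-0.064 to 0.27). These 3 did not pass the test.

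Among HSP70 and HSP110 genes other than Hspa5, 2 of 6 rose and none fell (median log2 fold change 0.09). Hspa2, an HSP70 protein best known from sperm development, had 0.032, -0.28, -0.24, -0.38, -0.35 and -0.16 in sham replicates 1 to 6 and 0.064, 0.14, 0.14, 0.14, 0.025 and -0.025 in LID replicates 1 to 6. Sham replicate 1 lay among the LID values, and the other 5 sham arrays lay below all LID arrays. It rose 1.24-fold (1.12 to 1.37, adjusted p = 0.00583), the largest increase of the 60 genes.

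Hspa9, for mortalin, which pulls proteins into mitochondria, ran from -0.20 to -0.017 with a median of -0.063 in sham and from 0.017 to 0.23 with a median of 0.057 in LID. The groups did not overlap, and LID replicate 6 was highest. The increase was 1.12-fold (1.05 to 1.20, adjusted p = 0.0259), with adjusted p = 0.0595 without LID replicate 3 and 0.0528 with sham replicate 2 and LID replicate 2 both left out. Hspe1, the mitochondrial HSP10, spread from -0.25 to 0.39 with a median of -0.065 in sham and from -0.36 to 0.57 with a median of 0.068 in LID. Its groups overlapped almost fully, and the interval of its log2 fold change, -0.25 to 0.37, allows changes of either sign.

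Hspa4 and Hsph1, exchange factors of the HSP110 type, had log2 fold changes of 0.13 (0.032 to 0.23, adjusted p = 0.0646) and 0.055 (-0.069 to 0.18, adjusted p = 0.609). Hspa13 and Hspa14 had 0.015 and -0.037. Hsp90ab1, the constitutive cytosolic HSP90, ran from -0.20 to 0.061 with a median of -0.078 in sham and from -0.096 to 0.37 with a median of 0.090 in LID, where LID replicates 1 and 4 were highest. Its log2 fold change was 0.19 (0.024 to 0.36, adjusted p = 0.11). None of these 5 passed the test.

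Of 7 genes whose symbol begins with Hspb, 1 fell and none rose. Hspb6, the small heat shock protein HSP20, which is known from smooth and heart muscle, had 0.095, 0.33, 0.27, 0.36, 0.42 and 0.62 in sham replicates 1 to 6 and -0.14, -0.27, -0.26, -0.30, -0.095 and -0.37 in LID replicates 1 to 6. The groups did not overlap, with sham replicate 1 and LID replicate 5 nearest to each other and sham replicate 6 highest. It fell by 0.59 (log2, standard error 0.079, adjusted p = 0.000326), a change larger in size than those of 96.9% of all probesets. Beside it, of 4 smooth muscle markers 1 was higher, the filament gene Des (0.94), and none was lower. Of 4 skeletal muscle markers none passed in either direction, with 1 at an unadjusted p under 0.05. The part of muscle cells in the value of Hspb6 was not tested.

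Hspb1, the small heat shock protein that injured sensory neurons are known to make, ran from -0.11 to 0.053 with a median of 0 in sham and from -0.048 to 0.14 with a median of 0.0063 in LID. Its log2 fold change was 0.037 (-0.061 to 0.13, adjusted p = 0.678), so an increase above 0.13 lies outside the interval. Hspb2, which is known from muscle, had -0.28 with a wide interval (-0.57 to -0.0020, adjusted p = 0.164) and passed without LID replicate 3 (adjusted p = 0.046). Hspb8, which acts with Bag3 in the autophagy of damaged proteins, had 0.15 (-0.011 to 0.32, adjusted p = 0.2) and passed without sham replicate 6 (adjusted p = 0.033). Hspb3 had 0.060 (-0.020 to 0.14). The remaining 2 are no small heat shock proteins but bind chaperones: Hspbp1, an exchange factor of HSP70, had -0.12 (-0.23 to -0.012) and Hspbap1 had -0.031 (-0.13 to 0.064).

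**Figure D4:**
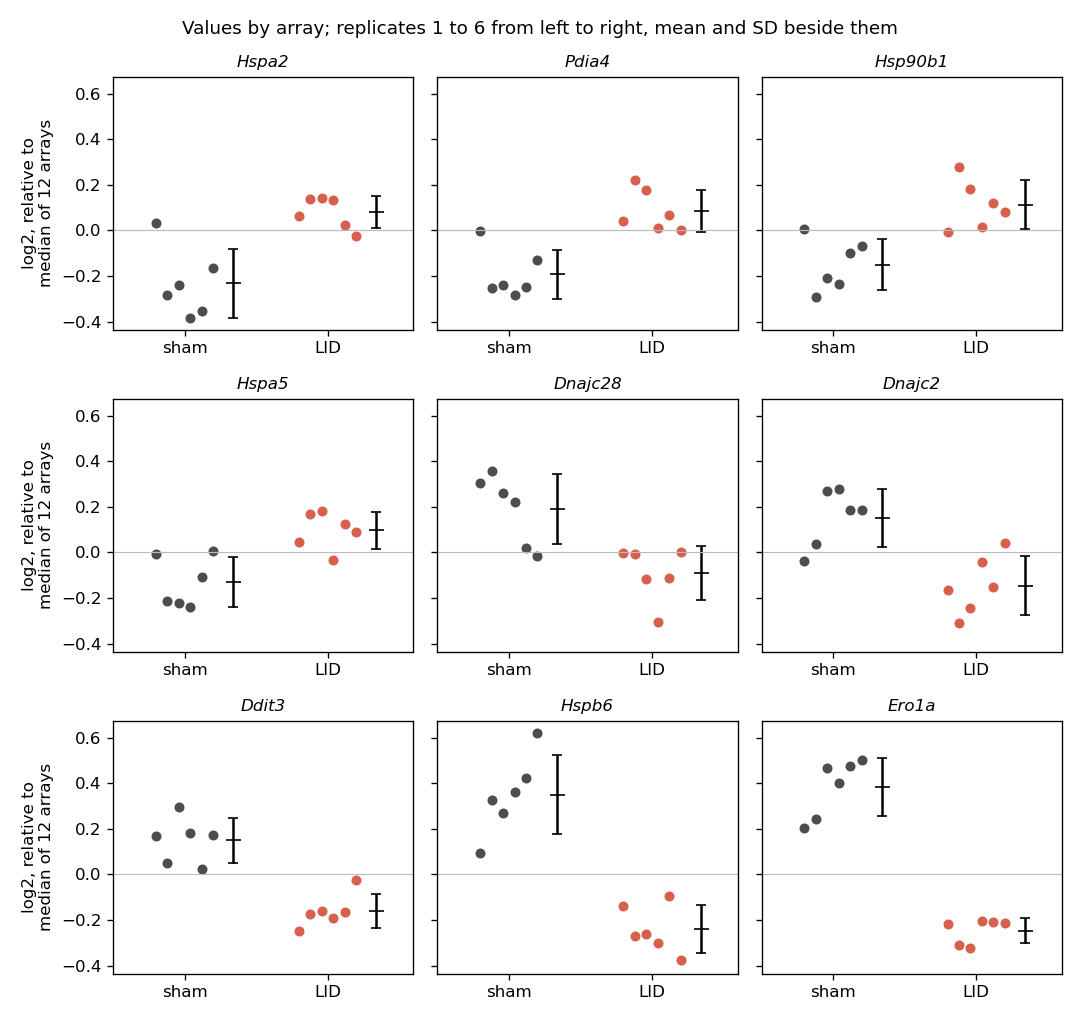
Log2 values by array, relative to the median of the 12 arrays, for the 9 genes that passed the test in every fit with 1 array left out; points are replicates 1 to 6 of sham (grey) and LID (red), and bars are the mean and SD of 6 arrays. Ero1a and Hspb6 show the widest gap between the groups, and in Hspa2, Pdia4 and Hsp90b1 sham replicate 1 is the highest sham array.

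J-domain proteins, which select clients for HSP70, formed the largest family, with 19 genes. Of these, 2 rose and 2 fell, and 15 had an adjusted p above 0.05, with a median log2 fold change of -0.02. Dnajc2, which works with Hspa14 on the ribosome, ran from -0.036 to 0.28 with a median of 0.19 in sham and from -0.31 to 0.041 with a median of -0.16 in LID. The 4 sham arrays with replicate numbers 3 to 6 lay above every LID array, and sham replicates 1 and 2 lay below LID replicate 6. Dnajc2 fell by 0.30 (log2, standard error 0.071, adjusted p = 0.0105).

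Dnajc28 ran from -0.014 to 0.36 with a median of 0.24 in sham and from -0.30 to 0.0021 with a median of -0.060 in LID, where LID replicate 4 was lowest. The groups overlapped only through sham replicate 6, and Dnajc28 fell by 0.28 (log2, standard error 0.076, adjusted p = 0.0191). Dnajc8, which is found with splicing factors, ran from -0.22 to 0.063 with a median of -0.16 in sham and from -0.017 to 0.17 with a median of 0.057 in LID. Sham replicate 3 was high and lay among the LID values. Dnajc8 rose 1.14-fold (1.05 to 1.23, adjusted p = 0.0309), and leaving out any 1 of sham 1, 4 or 5 or LID 1, 2 or 4 ended the call (adjusted p between 0.0589 and 0.0716).

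The other J-domain genes had log2 fold changes between -0.19 for Dnajb9 and 0.11 for Dnaja1, a partner of cytosolic HSP70. Dnajc21, which serves the maturation of ribosomes, had -0.17 (-0.30 to -0.035, adjusted p = 0.0774) and passed without sham replicate 2 (adjusted p = 0.017) or LID replicate 4 (0.0487). Dnajc5, the chaperone of synaptic vesicles, had -0.023 (-0.11 to 0.061, adjusted p = 0.787). Dnajc7, which links HSP70 with HSP90, had 0.093 (-0.0063 to 0.19), and Dnajc14 had -0.12 (-0.25 to 0.014). Dnajc22 and Dnajb13 had 0.096 and -0.084, and Dnaja2, Dnajc12, Dnajc16, Dnajc18, Dnajc25 and Dnajc5g lay between -0.045 and 0.047.

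The CCT chaperonin, a barrel-shaped complex that folds actin and tubulin, showed no change that passed the test. Cct2, Cct3, Cct4 and Cct5 had log2 fold changes of 0.0026 (-0.10 to 0.11), -0.059 (-0.26 to 0.15), -0.036 (-0.12 to 0.049) and -0.047 (-0.12 to 0.029), and none of the 4 had an unadjusted p under 0.05. Of 4 genes from the list for prefoldin, chaperonin and tubulin cofactors, 1 was lower and 1 higher (25% each, against 11.7% and 7.66% of all probesets). The prefoldin subunit Pfdn6 was lower (-0.46, standard error 0.086, adjusted p = 0.00256) and the tubulin cofactor Tbca was higher (0.28, standard error 0.085, adjusted p = 0.034).

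BAG proteins release clients from HSP70. Bag6, which guards proteins bound for membranes, ran from -0.0080 to 0.15 with a median of 0.056 in sham and from -0.12 to 0.025 with a median of -0.088 in LID. LID replicate 1 lay among the sham values, and the other 5 LID arrays lay below all sham arrays. Bag6 fell by 0.13 (log2, standard error 0.043, adjusted p = 0.0452), and the call ended when any 1 of sham 2, 3, 4 or 6 or LID 2, 3, 4, 5 or 6 was left out (adjusted p between 0.0645 and 0.0988). Bag3 had -0.11 (-0.22 to 0.012) and Bag5 had -0.025 (-0.18 to 0.13), and neither passed. A further list of heat shock factors and cofactors of HSP70 or HSP90, which also held Serpinh1 and Cryab, had 10 genes measured. None was higher and 2 were lower, the mitochondrial HSP90 protein Trap1 (-0.17) and Nudc (-0.19), with a median log2 fold change of -0.06. At an unadjusted p under 0.05, 2 were lower and 1 was higher, Serpinh1 (0.29, adjusted p = 0.0889 in limma).

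Of 6 FK506-binding proteins, which speed the turning of proline bonds, 1 rose and none fell (median log2 fold change 0.06). Fkbp10, an ER chaperone of collagen, ran from -0.37 to 0.010 with a median of -0.18 in sham and from -0.17 to 0.25 with a median of 0.16 in LID. Sham replicates 2, 3 and 4 were low at -0.35, -0.33 and -0.37, and LID replicate 6 lay far below the other LID arrays. It rose 1.23-fold (1.07 to 1.41, adjusted p = 0.0356), and the call ended when any 1 of sham 2, 3 or 4 or LID 1, 2, 3, 4 or 5 was left out (adjusted p between 0.057 and 0.0842). The mean of 4 fibroblast markers was low in the same arrays, with -0.31, -0.35 and -0.34 in sham replicates 2, 3 and 4 and -0.21 in LID replicate 6, against 0.01 to 0.22 in the other sham and -0.03 to 0.39 in the other LID arrays. None of these 4 markers passed the test (2 at an unadjusted p under 0.05), and their part in the value of Fkbp10 was not tested.

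The other FK506-binding proteins did not pass. Fkbp11 had a log2 fold change of -0.15 (-0.29 to -0.015, adjusted p = 0.122). Fkbp5, which glucocorticoids induce and which tunes their receptor, had 0.043 (-0.10 to 0.19, adjusted p = 0.759). Fkbp1a, the classical binding partner of FK506, had 0.076 (-0.038 to 0.19), and Fkbp9 and Fkbp14 had 0.081 (-0.073 to 0.23) and -0.0045 (-0.18 to 0.17).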

How the data were processed

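RNA from 12 single L5 DRG was hybridised to Affymetrix Rat Exon ST 1.0 arrays. The authors summarized the core probesets with RMA16 in GeneSpring, quantile normalized them and centred each on its median over all samples, and they deposited these values on the log2 scale. RNA was isolated with 1 of 2 kits, and the kit of each sample is not given in the sources used here, so the part of the kit in any difference cannot be told apart. The submitters' processing notes name the build rn4, and no coordinates of it were used. Gene symbols came from the platform annotation, in which 7603 probesets had 1 symbol, 409 had several and 248 were unnamed, and 7584 of the 7603 matched RefSeq by gene ID. Only the promoters carry coordinates, from RefSeq in GRCr8. The element of 1 of the 50 promoters is counted but not reported here.

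LID was compared with sham by a two-sided test in limma 3.58.1 (R 4.3.3) for 8260 probesets, with p adjusted by Benjamini-Hochberg and without a filter on low expression. The precision is limited by the number of arrays. The fit was tested on simulated data with the spread of each probeset. There the fit of 8260 probesets recovered 20% of genes set to 1.15-fold, 74% at 1.3-fold and 86% at 1.5-fold, and 11 of its 149 calls were false. The data gave 1601 calls, so a smaller p was needed to pass in the simulation than in the data. Its shares therefore need not hold for the data. Promoters were searched in Python 3.11.15. Alternatives concerned normalization, moderation, array weights, a replicate block, a covariate, the threshold and arrays left out.

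The genes, the lists and the tests were chosen with earlier results of these data known. Full values were given, by rule, for up to 2 called genes per direction in each role group and for a set of well known chaperones. Those with promoter elements and those close to the threshold were named after their values were seen.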

Additional observations from a re-analysis of the deposited data

Results flagged for a closer look

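For the 24 genes named by rule, the 6 values of each group were searched for an array far from the others, 48 groups in all, and 2 such arrays were found. About 1 in 20 groups would show one by chance. Pdia3 was -0.29 in sham replicate 2, where the next sham value was -0.08. Fkbp10 was -0.17 in LID replicate 6, where the next LID value was 0.10.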

How the results depend on the processing

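No gene of the 16 changed direction under any of the 24 alternatives to the limma fit. Alternatives of moderation, replicate block, probesets tested, threshold or p adjustment leave each fold change as it is, so direction could not change there. Only the other normalizations, the array weights, the covariate and the arrays left out could change it. The genes called higher (10) and lower (6) numbered 5 to 10 and 5 to 6 with 1 array left out, and over all probesets 495 to 700 were higher and 766 to 951 lower. At an adjusted p under 0.01, 2 genes were higher and 3 lower (334 and 498 of all probesets). With Holm adjustment in limma, 0 genes were higher and 2 lower (66 and 66 of all probesets). At an unadjusted p under 0.05, 14 were higher and 11 lower (972 and 1500 of all probesets). With sham replicate 2 and LID replicate 2 both left out, 9 of the 60 genes passed, 8 of them among the 16, and 3 genes were higher. That fit had fewer arrays per group, and the part of this in the lost calls was not tested. Sham replicate 2 had a median of 0.22 over 955 probesets of olfactory and related receptors, where other arrays had -0.08 to 0.08. With this median as a covariate, 978 of all probesets and 12 of the 60 genes were higher. In the same fit 1258 of all probesets and 7 of the 60 genes were lower. The genes gained by this covariate were Pdia3 (adjusted p = 0.0198), Hspa4 (0.0476) and Dnajc21 (0.0139). The log2 fold change of Hspe1, which did not pass, lay between -0.043 and 0.14 with 1 array left out and was negative without LID replicate 6. The labels do not say that a replicate number marks a shared batch or day, and the correlation of deviations between samples of 1 number ran from -0.15 to 0.40 over 6 numbers, above 0.1 in 3, so pairing was not established. With the replicate number as a block 5 genes were higher and 6 lower (675 and 1005 of all probesets). In that limma fit 10 of the 16 genes passed, with Bag6, Pdia6, Calr, Fkbp10, Dnajc3 and Dnajc8 lost, and Hspb2 was gained (adjusted p = 0.022). After the arrays were centred or quantile normalized again, Bag6 and Calr did not pass. For the 24 genes named by rule, over the 24 settings, 478 values kept their direction and side of the threshold, 95 no longer passed and 2 passed only there. The causes were not tested. Signal over background is unknown, so low expression could not be told from a small change.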
